A study of Mus musculus with 2 samples.

Results

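The genes described here encode the mitogen-activated protein (MAP) kinases, the kinases that activate them and the dual-specificity phosphatases (DUSPs). This group of genes was chosen with earlier results of these data known, and membership was then set by name. A gene belonged if its name in the scanner files began with Mapk, Map2k, Map3k, Map4k or Dusp followed by a digit. This gave 72 of the 27481 genes on the array, of which 41 were kinases, 24 were phosphatases and 7 were other genes that share the name. The kinases comprised 13 MAP kinases, 7 MAP kinase kinases (MAP2Ks), 16 MAP3Ks and 5 MAP4Ks. A probe is called detected here where the scanner software marked it as well above background. A gene was counted as measured if at least 1 of its probes was detected on both arrays, which held for 52 members: 31 kinases, 16 phosphatases and 5 others. A further 3 members were detected on the N2ICD array alone, 3 on the control array alone and 14 on neither.

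MAP kinase pathways are relays in which each kinase phosphorylates the next, with a MAP3K acting on a MAP2K and the MAP2K acting on a MAP kinase. ERK kinases mainly answer growth factors through Ras and Raf, whereas JNK and p38 kinases mainly answer stress and cytokines, and in skeletal muscle p38 also takes part in myogenic differentiation and in the response to contraction. The typical DUSPs remove phosphate from both the threonine and the tyrosine of the activation loop and so switch MAP kinases off, and several of them are themselves transcribed in response to MAP kinase signalling. The assay measured transcripts, so it carries no information on the phosphorylation or activity of these kinases.

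The 2 samples were total RNA from tibialis anterior, a leg muscle of mostly fast fibres, of adult male mice on the C57BL/6 background. The N2ICD sample was labelled as transgenic for N2ICD, an activated Notch2 receptor reduced to its intracellular part (line N2ICD-mTG), and the other sample was labelled as control; no other allele or agent is named. The labels give neither the promoter that drives the transgene nor the number of mice or muscles behind each sample. The series title concerns Notch2 of muscle fibres, muscle mass and fibre types, and its design text calls the work a single experiment. Each group was 1 array, so no difference below has a replicate check, no p-value was computed, and genotype, animal, dissection and array cannot be told apart.

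Each array carried 59305 non-control spots. On the N2ICD array 24982 of them were detected, on the control array 24916, and 0 were saturated on either. Signals are background-subtracted brightness values, and their 75th percentile was 190 for N2ICD and 169 for control. A log2 difference is N2ICD minus control after each array was scaled to that percentile, so equal signals give a difference below 0. For example, a Map3k5 probe with signals of 793 in N2ICD muscle and 800 in control muscle gave -0.19. For 251 probes printed several times, the log2 difference varied between spots with an SD of 0.14, and it was 0.23, 0.12, 0.077 and 0.055 in 4 groups of increasing level. Different probes of a gene varied more, with an SD of 0.25 over 3162 genes. The spot error is technical, while the spread between probes can also hold differences between transcripts of a gene. Neither measures the variation between animals, and the number of arrays limits the precision. The 13661 genes measured on both arrays had a median log2 difference of 0.01 and a median absolute difference of 0.19.

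Most members had similar levels on both arrays. Of the 31 measured kinases, 0 were at least 1.5-fold higher in N2ICD muscle and 3 were at least 1.5-fold lower, namely Mapk10, Map2k6 and Mapk11. Of the 16 measured phosphatases, 0 were past 1.5-fold in either direction. Over all measured genes, 5.09% were higher by this size and 4.83% were lower, and counts of 0 to 3 members are too small to set apart from those shares. At a 2-fold size, 1 kinase was lower, Mapk10, and 0 members were higher, while 1.43% of all genes were higher and 0.886% were lower by that size. The median log2 difference was -0.01 for the kinases, with a range of -1.23 to 0.37, and 0.01 for the phosphatases, with a range of -0.56 to 0.54.

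**Figure D1:**
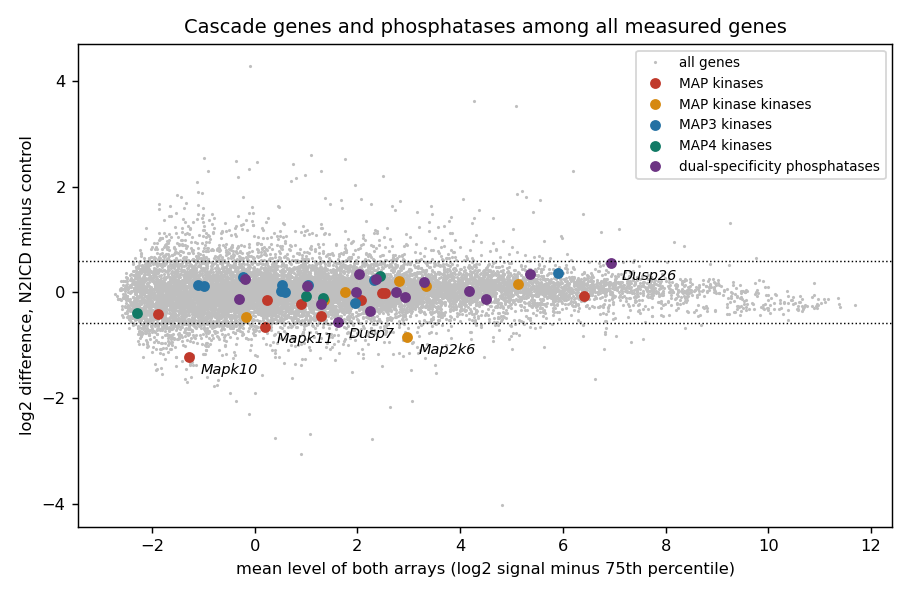
Log2 difference (N2ICD minus control) against the mean scaled level of both arrays for all 13661 measured genes (grey), the 31 kinases and the 16 phosphatases (coloured by class), with dotted lines at 1.5-fold. Mapk10, Map2k6 and Mapk11 lie below the lower line, and all other coloured points, with Dusp7 and Dusp26 nearest the lines, lie between them.

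The JNK genes had the lowest median of the MAP kinase families, -0.45 over 3 genes. Mapk10 encodes JNK3, the family member best known from brain, heart and testis. It had a signal of 51.5 in N2ICD muscle and 107 in control muscle, which was 2.35-fold lower in N2ICD muscle (log2 difference -1.23). The value rests on 1 probe in the dim range of the array, where the spot noise was 0.23, and the other Mapk10 probe was detected on neither array. The probe lies at chr5:103341389-103341448 on mm9 (minus strand), at position 2721 of its transcript. The first 30 of its 60 bases are printed here because the only 2-fold difference among the measured members depends on this probe.
Mapk10 probe: ctctcagacccttgaagatgtagcttccga

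Mapk8 and Mapk9, which encode JNK1 and JNK2, had smaller differences. Mapk8 had a signal of 44.9 in N2ICD muscle and 52.7 in control muscle, a log2 difference of -0.41. Its other probes were detected on the control array alone or on neither. Mapk9 averaged -0.45 over 2 probes that differed in size. Its probe at position 462 had signals of 112 and 158 in N2ICD and control muscle (-0.67), and its probe at position 4254 had 1420 and 1483 (-0.23). The 2 probes were designed on different Mapk9 transcripts, and both were lower in N2ICD muscle. The dimmer probe, at chr11:49677113-49677172 on mm9 (plus strand), begins with the 30 bases printed here.
Mapk9 probe at 462: caaacgcacgcaaagagagcctaccgtgaa

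Among the p38 genes, Mapk11 stood apart from Mapk12 and Mapk14. Mapk11, which encodes p38 beta, had a signal of 176 in N2ICD muscle and 245 in control muscle, 1.57-fold lower in N2ICD muscle (-0.65). Its single probe lies at chr15:88973159-88973218 on mm9 (minus strand), and its first 30 bases are shown because Mapk11 is 1 of the 3 kinases past 1.5-fold.
Mapk11 probe: cgggaccttgattcaaagttgacaaacgtc

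Mapk12 encodes p38 gamma, the p38 form most typical of skeletal muscle. It had signals of 15693 in N2ICD muscle and 14726 in control muscle (-0.08). Mapk14, which encodes p38 alpha, had a log2 difference of -0.01, with signals of 8016 and 7261 in N2ICD and control muscle at its probe at position 3532 and 138 and 122 at its other measured probe. The Mapk12 difference was larger than the spot noise of 0.055 at its level and smaller than the SD of 0.25 between probes of a gene, and Mapk14 was within both. Mapk13, which encodes p38 delta, was detected on the N2ICD array alone, at 43.1 against 32.0 on the control array. After scaling that is a ratio of 1.19-fold higher over an undetected value.

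The remaining MAP kinase genes differed little between the arrays. Mapk3, which encodes ERK1, had a log2 difference of -0.15, with signals of 1258 and 1172 in N2ICD and control muscle at one probe and 458 and 475 at the other. Mapk7, the larger kinase ERK5, had signals of 329 and 340 (-0.22). The atypical kinase gene Mapk6, which encodes ERK3, had a difference of -0.14, with signals of 1112 and 1046 at one probe and 41.5 and 42.4 at the other. Mapk4 and Mapk15 were detected on neither array.

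All 10 measured MAP kinase genes had a log2 difference below 0, with a median of -0.19, while 49.3% of all measured genes were below 0. The sign depended on the scale for the genes near 0: 8 of 10 were below 0 with normexp background correction, with median scaling or in the authors' deposited table, and 2 of 10 were below 0 when the spike-in probes set the scale. Those 2 were Mapk10 at -0.75 and Mapk11 at -0.17.

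**Figure D2:**
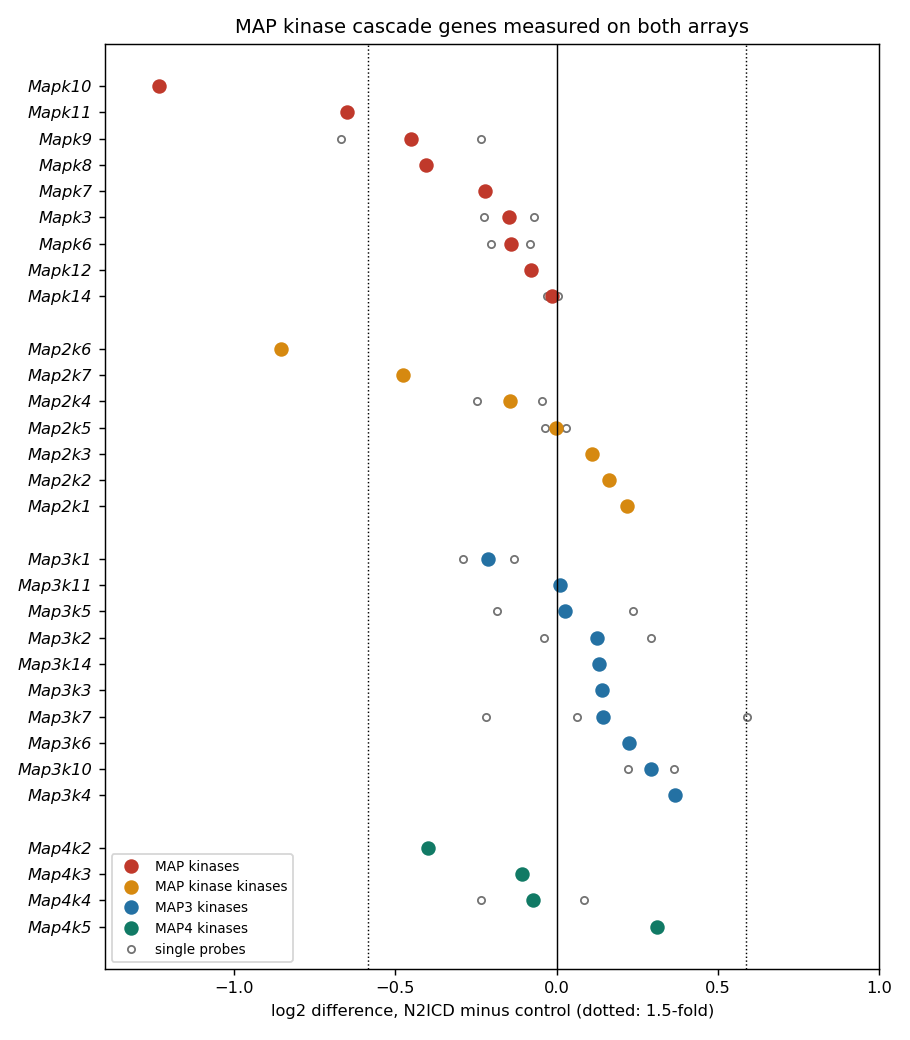
Log2 difference (N2ICD minus control, horizontal) of measured kinase genes, grouped by class from MAP kinases to MAP4 kinases, with open circles for single probes and dotted lines at 1.5-fold. The MAP kinase genes drawn lie left of 0 on this scale, and 9 of 10 MAP3K genes lie right of it.

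All 7 MAP2K genes were measured. Map2k6 encodes MKK6, an activator of p38, and had a signal of 1113 in N2ICD muscle and 1784 in control muscle, 1.81-fold lower in N2ICD muscle (-0.85). Its other probe, designed on a separate transcript, was detected on neither array. The measured probe lies at chr11:110374803-110374862 on mm9 (plus strand) and begins as shown here.
Map2k6 probe: ccgactgtcaactcaaccgtggctgatcat

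Map2k3 encodes MKK3, the other dedicated p38 activator, and had signals of 1986 in N2ICD muscle and 1634 in control muscle (0.11). The 2 p38 activators thus differed in direction by this scale. Map2k7, which encodes the JNK activator MKK7, had signals of 143 and 177 in N2ICD and control muscle (-0.48), and Map2k4, whose product MKK4 acts on JNK and also on p38, averaged -0.15 over 2 probes. The ERK activators lay on the other side of 0. Map2k1 (MEK1) had signals of 1440 and 1099 in N2ICD and control muscle (0.22), and the 2 probes of Map2k2 (MEK2) both gave 0.16. Map2k5, the ERK5 activator, averaged -0.00 over probes at -0.04 and 0.03.

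Grouped by the MAP kinase that they feed, the 5 genes of the JNK module (Map2k4, Map2k7, Mapk8, Mapk9 and Mapk10) had a median log2 difference of -0.45, and all 5 were below 0. Over all measured genes, 49.3% were below 0. Map2k4 was counted in this module only, and Mapk10 and Mapk8 each rest on 1 dim probe. The p38 module had 5 of 6 genes measured, with a median of -0.08 and 4 below 0. The JNK genes were all below 0 under every scaling tried except the spike-in scale, where 1 of 5 was below 0 and the median was 0.03. That scale shifts every gene alike.

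**Figure D3:**
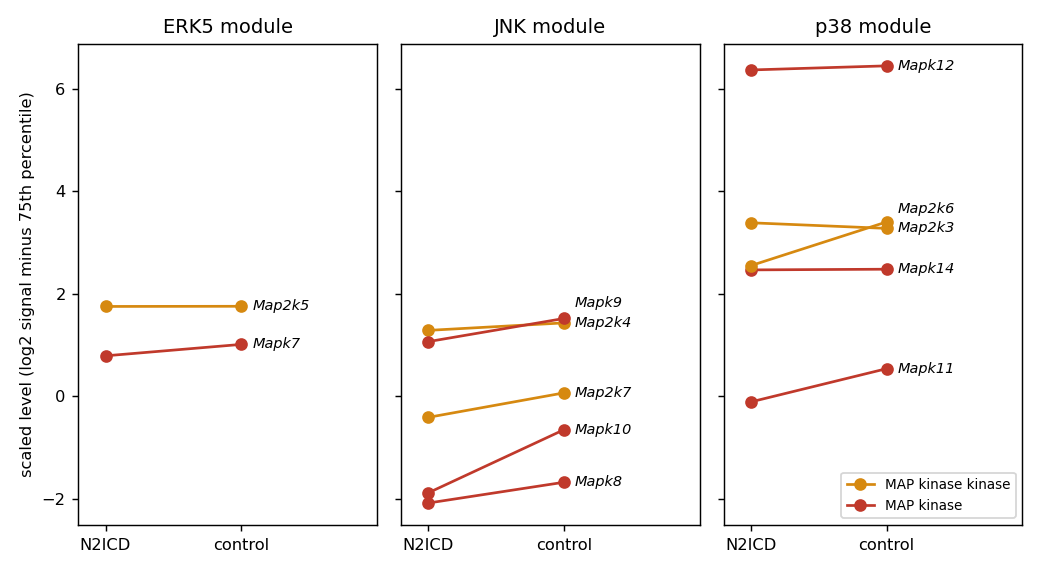
Scaled level (log2 signal minus the array's 75th percentile) of measured MAP2K and MAP kinase genes in N2ICD muscle (left) and control muscle (right), in panels by module (ERK5, JNK and p38); each line is 1 gene and compares that gene only with itself. All 5 lines of the JNK panel are lower on the N2ICD side, and in the p38 panel Map2k3 alone is higher there.

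The MAP3Ks, which receive the upstream signal, mostly had small differences above 0 on this scale. Of 16 genes, 10 were measured, 9 of them above 0, with a median of 0.14, a range of -0.21 to 0.37 and 0 past 1.5-fold. Over all measured genes, 49.3% were below 0. With normexp or with the brightest probe of each gene, 2 of 10 MAP3Ks were below 0. When detection on 1 array was enough, 3 of 12 were below 0, and on the spike-in scale 0 of 10 were. Map3k4, which encodes the stress kinase MEKK4, was highest at 0.37, with signals of 12980 in N2ICD muscle and 8940 in control muscle. Map3k10, a mixed-lineage kinase upstream of JNK, had a difference of 0.29 over 2 probes at 0.22 and 0.36. Map3k6 (ASK2) had 0.22, with its 2 probes at 0.22 and 0.23. Map3k3 (MEKK3) was printed 10 times and had signals of 290 and 233 in N2ICD and control muscle (0.14, SD over spots 0.09).

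Some MAP3Ks gave probe values that did not share a sign. Map3k7, which encodes TAK1, a kinase activated by cytokine and TGF-beta receptors, averaged 0.14 over probes at -0.22, 0.06 and 0.59, the widest spread of any member. Map3k5 (ASK1) averaged 0.03 over probes at -0.19 and 0.24. Map3k11 (MLK3) was at 0.01, and Map3k2 and Map3k14 (NIK) were both at 0.13. The Map3k14 value rests on its probe at position 3942. A dim Map3k14 probe at position 437 passed detection only in control muscle and did not enter that value. Its signals were 18.5 in N2ICD muscle and 33.7 in control muscle, a direction that detection in control muscle alone largely fixes. Map3k1 (MEKK1) was the MAP3K below 0, at -0.21. Its 2 probes sit 5 bases apart on the transcript and share 55 of 60 bases, and they gave -0.13 and -0.29, so nearly the same target differed by 0.16 between probes. The first 30 bases of each are printed with the shared letters in capitals, at chr13:112536814-112536873 for the upper probe and chr13:112536809-112536868 for the lower on mm9 (minus strand).
Map3k1 probe at 6730: taagaCTTCCAGGGCTTAAGGGCTAACTCC
Map3k1 probe at 6735: CTTCCAGGGCTTAAGGGCTAACTCCTATTA

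Of the 5 MAP4K genes, which encode kinases of the germinal centre family upstream of JNK, 4 were measured. Map4k5 had signals of 1146 in N2ICD muscle and 820 in control muscle (0.31), whereas Map4k2, close to the detection limit, had 34.1 and 39.9 (-0.40). Map4k3 and Map4k4 lay between them at -0.11 and -0.07.

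The phosphatases showed no shared direction: 9 of the 16 measured genes were above 0 and 7 below. Of the 10 classical MAP kinase phosphatases, 7 were measured, with a median of -0.10. The lowest were the genes for the cytoplasmic ERK phosphatases. Dusp7 averaged -0.56, with signals of 666 and 967 in N2ICD and control muscle at one probe (-0.71) and 349 and 409 at the other (-0.40). Dusp6 (MKP-3), whose transcript is a common readout of ERK signalling, had signals of 802 and 909 (-0.35). Both Dusp7 probes were lower in N2ICD muscle, by amounts that lay on opposite sides of 1.5-fold. The genomic spans of the 2 Dusp7 probes overlap, at chr9:106277943-106278000 and chr9:106277985-106278044 on mm9 (plus strand), and 30 bases of each are shown with the shared run of 15 letters in capitals.
Dusp7 probe at 2097: gacacacacacacatACACATATATATCCC
Dusp7 probe at 3142: cACACATATATATCCCgagccagcaacggg

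Of the inducible nuclear phosphatases, Dusp1 was close to 0 and Dusp2 was higher. Dusp1 (MKP-1), which responds to stress and growth factors within minutes to hours, had signals of 1405 in N2ICD muscle and 1336 in control muscle (-0.10). Dusp2 (PAC-1) had 184 and 137 (0.25). Dusp4 and Dusp5, which complete that class, were detected on neither array. The phosphatases that favour JNK and p38 were also close to 0: Dusp8 averaged -0.00 over probes at -0.12 and 0.12, Dusp10 (MKP-5) had signals of 148 and 143 (-0.13) and Dusp16 (MKP-7) had 1286 and 1133 (0.01). Dusp9 was not measured.

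Among the other 14 DUSP genes, 9 were measured, with a median of 0.20. The highest was Dusp26, an atypical phosphatase, with signals of 28126 in N2ICD muscle and 17118 in control muscle, 1.46-fold higher in N2ICD muscle (0.54) and just inside the 1.5-fold line. Dusp13, which has a muscle-specific product, gave 0.31 and 0.36 at its 2 probes (0.34), with signals of 20687 and 14777 in N2ICD and control muscle at the brighter one. Dusp22 averaged 0.34 over probes at 0.14 and 0.53, and Dusp27, a muscle protein needed for myofibre assembly in zebrafish, had 1077 and 799 (0.26). Dusp28 was at 0.20, Dusp12 at 0.12, Dusp3 (VHR) at 0.02, Dusp23 at -0.14 and Dusp14 at -0.22.

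**Figure D4:**
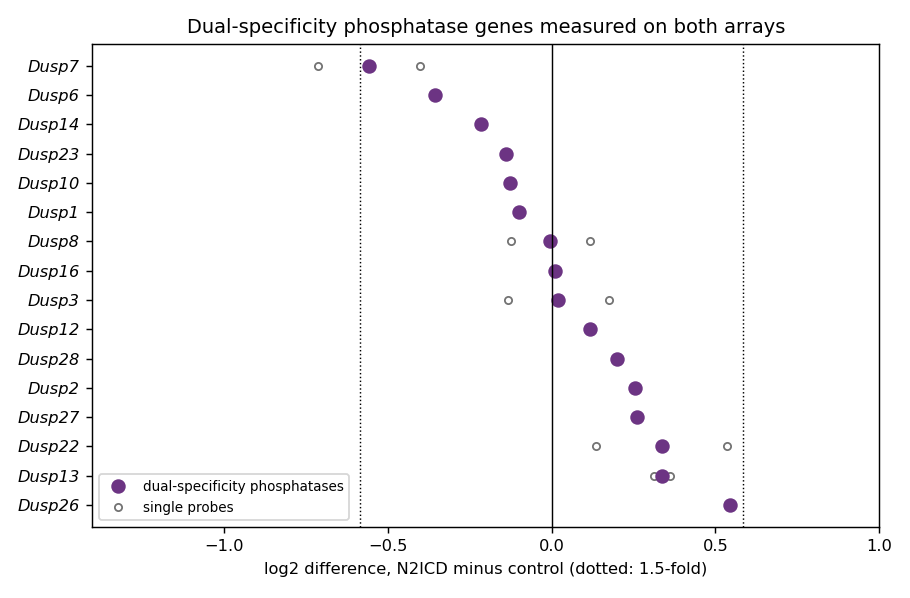
Log2 difference (N2ICD minus control, horizontal) of the 16 measured phosphatase genes, ordered from lowest to highest, with open circles for single probes and dotted lines at 1.5-fold. Dusp7 at -0.56 and Dusp26 at 0.54 mark the ends, and only 1 Dusp7 probe lies beyond a dotted line.

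Members detected on 1 array alone give bounds or ratios over an undetected value, not measured folds. The bound divides the brighter array's value by the dim array's value or by the detection floor, the dimmest value of any detected probe, whichever is larger. It holds only if background was judged rightly. Where the dim value was the larger, as for Map3k13 and Mapk13, the result is the plain scaled ratio and not a bound. Undetected values can thus lie above the floor, and no bound is a guaranteed minimum. Dusp18, an atypical phosphatase, was detected on the N2ICD array alone at both of its probes. The probe at position 2407 had signals of 56.0 in N2ICD muscle and 22.3 in control muscle, with a bound of 1.95-fold higher. The probe at 3875 had 37.6 and 15.0, with a bound of 1.31-fold higher. Detection on the N2ICD array alone largely fixes that direction, so the 2 probes are not independent support for it. They lie at different sites of the transcript (chr11:3799075-3799134 and chr11:3800543-3800602 on mm9, plus strand), and their first 30 bases are shown.
Dusp18 probe at 2407: ttttttaacaaagaactttatttgagcctt
Dusp18 probe at 3875: gtatgtttacccagtatgagttgagttgat

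On the control side, Map3k13 (LZK) had 28.0 in N2ICD muscle and 41.1 in control muscle, a scaled ratio of 1.65-fold lower. Map4k1 (HPK1), best known from blood cells, had 22.4 and 37.1, with a bound of 1.54-fold lower. Both rest on 1 dim probe, and detection on the control array alone largely fixes their direction. The members just inside the detection threshold were similarly dim: the dimmest measured probes were those of Mapk1ip1l at 32.8 and 29.7, Map4k2 at 34.1 and 39.9 and Map3k2 at 40.0 and 36.6 in N2ICD and control muscle. Members on either side of the threshold thus had signals in the same range.

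The members with several measured probes show how far a single probe can be trusted. Of 23 such members, 12 had probes of opposite sign, the median distance between the highest and lowest probe was 0.24, and 20 stayed within 0.5. Mapk10, Map2k6 and Mapk11 each rest on 1 measured probe and have no such check.

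The 7 other genes that carry a MAP kinase name are not kinases. Mapk8ip1 (JIP1), the scaffold that holds JNK and its activators together, had signals of 646 in N2ICD muscle and 778 in control muscle (-0.44). Mapk8ip3 (JIP3) averaged 0.06 over probes at -0.30 and 0.43. A further Mapk8ip3 probe was detected on the control array alone, at 11.3 in N2ICD muscle and 28.4 in control muscle. Mapk8ip2 (JIP2) was also detected on the control array alone. Map2k3os, a non-coding RNA gene named for its place opposite Map2k3, was at 0.20, while Mapk1ip1 was at 0.02 and Mapk1ip1l at -0.09, and Map3k7cl was detected on neither array.

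For the 3 kinases past 1.5-fold, the 250 bases before the RefSeq start in GRCm38.p6 are printed to show the letters that were searched. The search covered both strands for the RBPJ core TGGGAA, the cyclic AMP response element TGACGTCA, the GC box GGGCGG, the E-box CACGTG, and the MEF2 and CArG elements. No matches overlapped in these windows. Matches are in capitals and are descriptions of letters, not sites of binding.
Mapk10 promoter, chr5:103211335-103211584 (minus strand): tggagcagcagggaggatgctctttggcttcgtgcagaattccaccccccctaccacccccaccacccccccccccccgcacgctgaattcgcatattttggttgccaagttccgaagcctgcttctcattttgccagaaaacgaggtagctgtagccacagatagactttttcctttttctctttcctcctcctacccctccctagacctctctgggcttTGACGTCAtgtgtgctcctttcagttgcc
Mapk11 promoter, chr15:89149607-89149856 (minus strand): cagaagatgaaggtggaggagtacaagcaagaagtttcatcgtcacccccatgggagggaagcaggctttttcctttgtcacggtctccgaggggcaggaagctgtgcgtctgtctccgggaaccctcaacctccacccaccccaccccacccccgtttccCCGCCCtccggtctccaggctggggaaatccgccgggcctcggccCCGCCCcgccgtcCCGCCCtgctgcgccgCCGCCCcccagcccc
Map2k6 promoter, chr11:110398852-110399101 (plus strand): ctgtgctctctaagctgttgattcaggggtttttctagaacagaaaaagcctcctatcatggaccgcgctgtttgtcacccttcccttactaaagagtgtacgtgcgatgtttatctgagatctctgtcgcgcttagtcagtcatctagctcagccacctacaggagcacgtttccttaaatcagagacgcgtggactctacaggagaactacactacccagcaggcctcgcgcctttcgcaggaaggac

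Mapk10 held TGACGTCA once, with its first base 29 bases before the start, and 1.55% of all 32851 RefSeq promoter windows of that length held it. Mapk11 held GGGCGG 4 times, written CCGCCC on this strand, at 89, 44, 31 and 15 bases before the start, and 32.7% of all windows held at least 1. Map2k6 held none of these motifs, and TGGGAA was in none of the 3 windows, while 21.6% of all windows held it. RefSeq lists 2 starts for Mapk10, 1 for Mapk11 and 3 for Map2k6, and 1 window of each gene is shown. Across the 68 windows of the 54 members that matched, 17.6% held TGGGAA, 4.41% held TGACGTCA and 61.8% held GGGCGG.

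The rest of the pathway was read from lists of genes that act before or after the members, whose counts past 1.5-fold stand beside shares of 5.09% higher and 4.83% lower over all measured genes. Of 22 measured genes for growth factor receptors, adaptors, Ras and Raf, out of 23 listed, 2 were at least 1.5-fold higher and 1 was at least 1.5-fold lower, with a median of -0.09. Shoc2, a scaffold that helps to activate Raf, had signals of 101 in N2ICD muscle and 58.7 in control muscle (0.61), and Ksr2, a scaffold for Raf and MEK, had 113 and 160 (-0.67). Of 19 measured activators and scaffolds of the stress branch, 0 were higher and 1 was lower past 1.5-fold: Gadd45a, a stress-induced activator of MAP3Ks, had 159 and 223 (-0.66), while Gadd45b was at 0.54 and Spag9 (JIP4) at 0.50.

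Kinases that act after the MAP kinases had the highest median of the 5 lists, 0.29 over 11 measured of 12. Mknk2 (MNK2), which phosphorylates the translation factor eIF4E, averaged 1.13, with signals of 281 and 74.7 in N2ICD and control muscle at one probe (1.74) and 58112 and 36102 at the other (0.51). Rps6ka1 (RSK1), a substrate of ERK, had 538 and 846 (-0.82). Mapkapk2 (MK2), a substrate of p38, had 9505 and 5624 (0.58), just short of 1.5-fold. In this list 1 gene was past 1.5-fold in each direction, against 5.09% higher and 4.83% lower over all genes.

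Other brakes on the pathway had 14 of 19 genes measured and a median of -0.04. Ptpn5, which encodes a tyrosine phosphatase that acts on ERK and p38, had 3275 and 4457 in N2ICD and control muscle (-0.62) and was the 1 gene past 1.5-fold, with 4.83% of all genes lower by that size. Rasa1, a Ras GTPase-activating protein, was at 0.53 and Ptpn1 at 0.45. Among transcription factors and ERK-responsive genes, 26 of 30 were measured, 7 were at least 1.5-fold higher and 1 was lower, against 5.09% and 4.83% of all genes. The list had a median of 0.14, with 14 genes above 0 and 12 below. At least 2-fold higher were 5 genes, against 1.43% of all genes. These 5 were Atf3 at 2.42, Fos at 2.34, Egr1 at 2.17, Fosb at 1.29 and Egr2 at 1.04. Signals in N2ICD and control muscle were 396 and 69.6 for Fos, 167 and 60.7 for Fosb and 77.7 and 33.6 for Egr2. Mef2c at 0.67 and Jun at 0.65 completed the 7, and Etv4, an ERK-responsive factor, had 219 and 323 (-0.73). In the same sample pair, the inducible phosphatase genes Dusp1, Dusp2 and Dusp6 were at -0.10, 0.25 and -0.35.

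Muscle is a mixture of cell types, and fewer cells of a type and less RNA per cell cannot be told apart in such a sample. All 9 muscle fibre markers were measured, with a median difference of -0.11. Averaged over the probes of each gene, their signals were no less than 44441 in N2ICD muscle and 32409 in control muscle. Macrophage and leukocyte markers had 8 of 9 genes measured, 6 of them below 0, with a median of -0.34 and summed signals of 5952 and 5780 in N2ICD and control muscle. Itgam, whose probes differ in sign, gave 3972 and 3263 of these sums, which are not scaled between the arrays. Endothelial markers, 8 of 8 measured, had a median of -0.22 and summed signals of 10315 and 11006. Satellite cell markers, 5 of 6 measured, had a median of 0.73 and summed signals of 30465 and 10458. Most of the sum came from Itga7, which fibres also express. Itga7 was at 1.49, Sdc4 at 0.86 and Cdh15 at 0.73, while Pax7 was at 0.14 and Megf10 at -0.23. The part of these cell types in the differences of Mapk10, Map4k1 and the other members was not tested.

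The size of every difference depends on what the arrays are scaled to. The 7 spike-in probes, which are control probes for RNA added from outside, would place all measured genes 0.48 higher in N2ICD muscle than the percentile scale does. On the spike-in scale 11 kinases and 7 phosphatases were at least 1.5-fold higher and 1 kinase, Mapk10, was at least 1.5-fold lower. Over all genes, 35.0% were higher and 0.732% were lower by that size on the spike-in scale. All statements of higher and lower above are therefore relative to the typical gene. The authors' deposited table gave a fold of 2.33 down for Mapk10, 1.79 down for Map2k6, 1.55 down for Mapk11 and 1.47 up for Dusp26. The authors' deposited table gave 2.26 and 2.25 up for the Dusp18 probes and listed them as not detected on the control array.

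**Figure D5:**
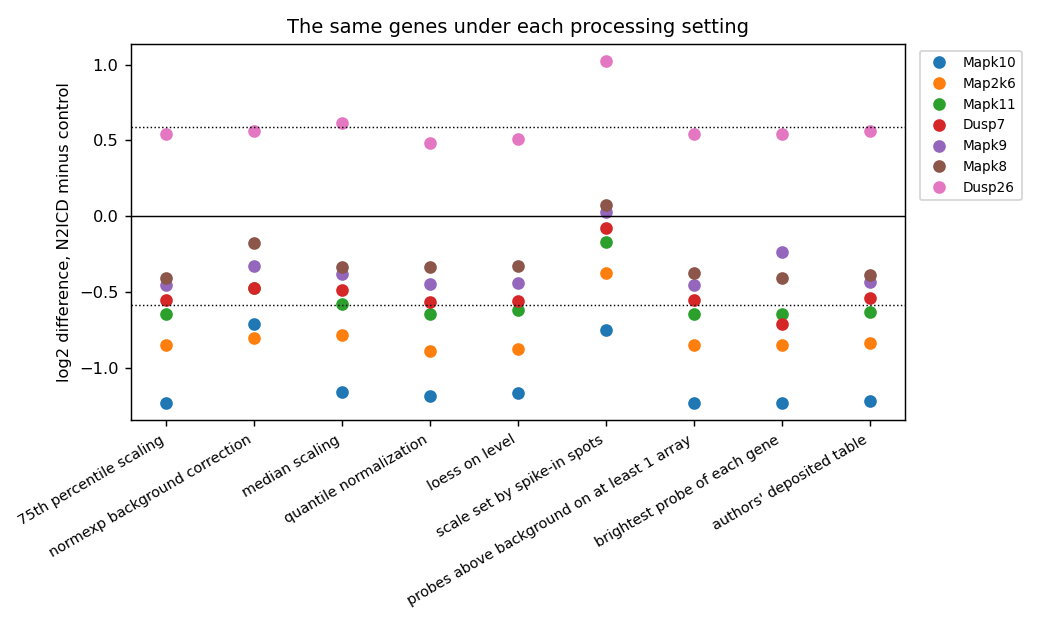
Log2 difference (N2ICD minus control, vertical) of 7 members under each processing setting along the horizontal axis, with dotted lines at 1.5-fold. Mapk10 is the lowest of the 7 in all 9 settings except normexp background correction, where Map2k6 is lower, and every gene is shifted upward on the spike-in scale.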

How the data were processed

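Total RNA of each sample was labelled with Cy3 and hybridised to 1 one-colour array, per the labels' protocols. Groups were taken from the sample titles. Per the file headers, the authors ran Agilent Feature Extraction (version 10.10.1.1), whose processed spot intensity is background-subtracted and detrended but not normalized between arrays, and the headers place probes on mm9. The authors' deposited table gives per probe an unsigned ratio (fold) with a direction, and a log2 value, which was log2 intensity after division by a fixed signal on each array (166 for N2ICD and 149 for control). The steps behind that table are not stated in any label or header used here.

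From the scanner files, control spots and 215 spots marked non-uniform or as population outliers were left out. The log2 signal minus the array's 75th percentile over non-control spots was averaged over the spots of a probe, which gave 55672 probes. Probes that passed as well above background on both arrays were averaged per gene. Both arrays lay on 1 slide. Member names are those of the files; other genes were named by accession through a GRCm38.p6 RefSeq table, which matched 31161 spots. Promoter windows came from RefSeq GRCm38.p6 and were not mixed with mm9 positions. The 10 MAP kinase phosphatases, the pathway lists, the marker lists and the members themselves were chosen with earlier results of these data known.

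There was no test, since each group had 1 array. Counts were made at 1.5-fold and 2-fold beside the share of all genes. Signals were given for members past 1.5-fold, for all measured MAP kinases and MAP kinase phosphatases and for members near the detection limit; any other measured member could be named. A few genes covered by these rules go unreported, though counts and medians include them. From each pathway list, genes at least 2-fold different and up to 3 others with the largest absolute difference were named. Alternatives were normexp (offset 50), median scaling, quantile normalization, loess (span 0.3), a spike-in scale, a looser detection filter, the brightest probe, the authors' deposited table and a 2-fold threshold. The steps were tested on simulated data. Values were computed with limma 3.58.1 in R 4.3.3 and with pandas 2.3.3, numpy 2.4.6 and matplotlib 3.10.9 in Python 3.11.15.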

Additional observations from a re-analysis of the deposited data

Results flagged for a closer look

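Dusp18 gave a signal in data outside the comparison of measured genes, because neither of its probes was well above background on both arrays. Its probe at position 2407 of the transcript was well above background on the N2ICD array and not on the control array. The bound was 1.95-fold higher in N2ICD muscle, which is not a guaranteed minimum, and detection on that array alone largely fixes the direction. The signal was 56.0 in N2ICD muscle and 22.3 in control muscle. Its mean level lies below the dimmest group of probes with a measured spot noise, which was 0.23 on the log2 scale. No replicate of either group bears on it.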

How the results depend on the processing

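The main values were 0 kinases at least 1.5-fold higher, 3 lower and a median of -0.01, and 0 phosphatases past 1.5-fold with a median of 0.01. Quantile normalization, loess and the authors' deposited table gave the same counts. Normexp and median scaling gave 2 lower kinases, as Mapk11 lay at -0.47 and -0.58, and median scaling gave 1 higher phosphatase, Dusp26. Medians this close to 0 changed sign between settings, from -0.07 to 0.06 for the kinases and -0.02 to 0.12 for the phosphatases, leaving out the spike-in scale. On the spike-in scale the medians were 0.47 for kinases and 0.49 for phosphatases, with 11 kinases and 7 phosphatases higher and 1 kinase lower, because that scale adds 0.48 to every gene. A filter that asked for detection on 1 array only gave 1 higher and 5 lower kinases and 1 higher phosphatase, since more genes entered. The brightest probe of each gene gave 1 higher kinase, Map3k7 at 0.59, and 1 lower phosphatase, Dusp7 at -0.71. At 2-fold 1 kinase was lower. Over all genes, 5.09% were higher and 4.83% lower past 1.5-fold, against 2.64% and 1.70% with normexp, 6.68% and 3.58% with median scaling, 7.15% and 7.10% with the looser filter and 35.0% and 0.732% on the spike-in scale. With normexp Mapk10 was at -0.71 and Mapk8 at -0.18; the cause was not tested. No paired analysis was possible because each group had 1 array, and for the same reason no sample could be left out and the slide could not be used as a block. Signal over background limits the dim probes. Mapk10 and Mapk8 lie in the range with a spot noise of 0.23. Map4k2 and Dusp18 have mean levels below that range, where spot noise was not measured.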

Other observations

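Map3k20, the stress kinase gene that the files list under the older name Zak, was outside the members because of that name. Its probe at position 939 had a signal of 322 in N2ICD muscle and 188 in control muscle, a log2 difference of 0.60, larger than that of any measured MAP3K among the members. Map3k21, listed under a clone name, was well above background on neither array. Map3k20 was chosen after its value was seen.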
